A study of Mus musculus with 9 samples.

Results

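The 10 genes described here, *Ttr*, *Folr1*, *Kcnj13*, *Kcne2*, *Kl*, *Otx2*, *Sostdc1*, *Clic6*, *Enpp2* and *Aqp1*, are genes of the choroid plexus epithelium, and their levels were read in the hippocampus of mice that lacked or overexpressed the ATPase inhibitory factor 1 (IF1). They were taken by gene name among the non-control probes of the array, which gave 13 probes for 10 of 31093 gene names. They were chosen by their levels on the 9 arrays and by the correlation of those levels, so both are given as a description and without a test. The differences between genotypes, which are no part of the rule but rest on the same arrays, come with the *P* values and intervals of the fit over all genes. IF1 is a mitochondrial protein that binds and inhibits the ATP synthase. RNA came from 3 IF1-KO, 3 CRL and 3 IF1-TG mice, all males of strain C57BL/6J aged 9 months, with 1 mouse and 1 one-colour Agilent mouse array per sample. IF1-KO mice lost exon 3 of the mouse IF1 gene through a Cre recombinase driven by *Camk2a*, which acts in excitatory neurons of the forebrain. IF1-TG mice carried human IF1 under a tetracycline-regulated promoter, switched on by a transactivator under *Camk2a*. CRL is the control group, and which alleles the control mice on the arrays carried is not given in the sources used here. Neither driver is directed at the choroid plexus.

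The choroid plexus is a fold of tissue in each brain ventricle, with a single layer of epithelial cells over a core of vessels and stroma. Its epithelium secretes the cerebrospinal fluid and moves vitamins, hormones and ions between blood and fluid. In the lateral ventricle it hangs beside the hippocampus, attached along the fimbria. The hippocampus itself expresses most of the 10 genes weakly, while *Enpp2* is also a gene of oligodendrocytes.

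A value is the log2 signal of a probe minus the 75th percentile of the log2 signals on that array, and a difference of 1 on this scale is a 2-fold change. A gene is given by its probe with the highest mean signal, and levels are compared between arrays and never between probes. All 13 probes passed the filter on dim probes, which kept a probe if every array of some genotype measured it well above background and left 27991 of 39429 probes. The probes of 9 genes were well above background on all 9 arrays and that of *Aqp1* on 8 of 9. Over the arrays 66.7% to 74.9% of the probes were well above background, and no probe was saturated. *Atpif1*, the gene of IF1, was at 5.20 in replicate 2 and 5.53 in replicate 3 of the mice labelled IF1-KO, against 6.19 to 6.34 on the CRL arrays. Replicate 1 of the same label read 6.43, so in *Atpif1*, read by 1 probe, this array goes against its label. Whether the probe lies in the deleted exon, and the cause of the reading, were not tested. The arrays lay on 3 slides. The first carried only IF1-TG mice (replicates 1 and 2). The second carried all genotypes, with CRL replicates 1 and 2, replicate 3 of IF1-TG and replicate 1 of IF1-KO. The last one carried CRL replicate 3 with replicates 2 and 3 of IF1-KO. With 3 mice per genotype, a *P* value measures the spread between these mice, and the labels do not say whether they were littermates.

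In each of the 10 genes the same 3 arrays stood apart from the rest, 1 array of each genotype and 1 on each slide. IF1-TG replicate 1, CRL replicate 2 and IF1-KO replicate 3 were the highest arrays for 10 of 10 genes and for 13 of 13 probes. The lowest of these 3 lay above the highest of the other 6 arrays by 1.17 log2 units in *Clic6* and by 3.74 in *Kcne2*, with the other genes between them. In a tissue sample such as this, fewer cells of a type and less RNA per cell cannot be told apart. The differences between genotypes, the pairwise correlations and those of the other choroid plexus and ependymal genes are given also without these 3 arrays.

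Of the 9 promoter windows that RefSeq's table (GRCm38.p6) holds for members of the list, 1 for *Aqp1*, 2 for *Kcne2*, 1 for *Kcnj13*, 1 for *Kl* and 4 for *Otx2*, 3 are shown. Those of *Kcne2* and *Aqp1* belong to the genes with very wide ranges between arrays, and that of *Otx2* is the 1 window with the letters TAATCC, a core that homeodomain proteins of the Otx class bind. Each is the 250 bases before a start site, 5′ to 3′ along the gene. Capitals mark TAATCC, here read on the opposite strand as GGATTA. The windows lie at chr16:92292139-92292388 on the plus strand, chr6:55336049-55336298 on the plus strand and chr14:48665110-48665359 on the minus strand, all on GRCm38.p6.
Kcne2: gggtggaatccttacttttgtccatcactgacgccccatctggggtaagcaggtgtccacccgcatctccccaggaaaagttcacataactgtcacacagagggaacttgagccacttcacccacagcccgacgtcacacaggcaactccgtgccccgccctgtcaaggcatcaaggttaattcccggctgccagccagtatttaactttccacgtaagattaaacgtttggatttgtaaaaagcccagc
Aqp1: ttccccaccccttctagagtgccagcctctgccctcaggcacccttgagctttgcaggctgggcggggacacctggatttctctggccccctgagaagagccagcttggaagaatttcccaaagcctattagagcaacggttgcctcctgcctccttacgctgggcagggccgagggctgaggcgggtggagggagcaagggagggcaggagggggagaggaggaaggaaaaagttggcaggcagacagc
Otx2: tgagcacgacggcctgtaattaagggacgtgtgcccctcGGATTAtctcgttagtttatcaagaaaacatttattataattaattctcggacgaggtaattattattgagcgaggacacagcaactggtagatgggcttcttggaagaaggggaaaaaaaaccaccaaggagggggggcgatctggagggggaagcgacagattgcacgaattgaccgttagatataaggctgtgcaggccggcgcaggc
Searched on both strands, TAATCC was held by 1 of the 9 windows and by 6.25% of all 32851 windows in the table. The related letters TAAGCC, likewise sought on both strands, were held by 1 of the 9, another window of *Otx2* that is not shown, and by 8.20% of all. Neither run of letters was shared between members.

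*Ttr* encodes transthyretin, which carries thyroxine and, with retinol-binding protein, retinol, and is the main protein that the plexus secretes. Its probe read 1.98, 0.26 and 6.44 on IF1-KO replicates 1 to 3, 2.58, 6.74 and 0.78 on CRL replicates 1 to 3, and 7.27, 3.12 and 1.91 on IF1-TG replicates 1 to 3. Each genotype had 1 array at 6.44 or more and a pair at 3.12 or less, and the 3 genotypes overlapped. Between its lowest and its highest array *Ttr* ranged 130-fold, wider than 99.99% of the kept probes. The mean was 2.89 ± 3.19 in IF1-KO, 3.37 ± 3.06 in CRL and 4.10 ± 2.81 in IF1-TG mice (SD, n = 3 each). *Folr1* encodes folate receptor alpha, which brings folate into the cerebrospinal fluid. It read -1.66, -2.57 and 1.85 in IF1-KO, -1.37, 2.5 and -2.0 in CRL and 3.40, -1.32 and -1.84 in IF1-TG mice, in the order of their replicates. Its 9 arrays stood in the same order as those of *Ttr*, with a 62.7-fold range.

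Among the genes of ion and water transport, *Kcne2* and *Aqp1* had the widest ranges after *Ttr*. *Kcne2* encodes a small subunit that modifies potassium channels. It was at -4.59, -6.09 and -0.49 in IF1-KO, at -4.22, 0.11 and -5.70 in CRL and at 0.85, -5.22 and -5.27 in IF1-TG mice. Its 3 high arrays stood clear of all the others, and its range was 123-fold. *Aqp1*, the water channel of the apical membrane, read -5.42, -6.48 and -1.42 in IF1-KO, -4.97, -1.01 and -5.85 in CRL and 0.28, -4.85 and -5.92 in IF1-TG mice. Its range was 108-fold, from IF1-KO replicate 2 to IF1-TG replicate 1, both well above background, and the array that was not is IF1-TG replicate 3. *Kcnj13*, an inwardly rectifying potassium channel, read -0.83, -3.11 and 0.53 in IF1-KO, -2.15, 1.26 and -2.81 in CRL and 2.15, -1.47 and -2.38 in IF1-TG mice. IF1-KO replicate 1 reached within 1.36 of IF1-KO replicate 3, closer than in the other 9 genes within that genotype. *Clic6*, a protein of the chloride intracellular channel family, read -2.23, -2.40 and 0.78 in IF1-KO, -0.68, 0.49 and -1.56 in CRL and 2.5, -1.40 and -1.66 in IF1-TG mice, a 29.8-fold range. CRL replicate 1 came within 1.17 of CRL replicate 2, the smallest step between the 3 high arrays and the rest in any of the 10 genes.

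The regulators and secreted factors ranged over 7.91-fold to 39.0-fold. *Otx2*, a homeodomain transcription factor required for the plexus to form, read -2.34, -3.22 and 0.20 in IF1-KO, -1.61, 0.03 and -1.48 in CRL and 1.30, -1.53 and -2.54 in IF1-TG mice. *Sostdc1*, a secreted antagonist of BMP and Wnt signals, read -0.98, -2.24 and 0.86 in IF1-KO, -0.95, 1.73 and -1.50 in CRL and 3.04, -1.46 and -1.28 in IF1-TG mice. In both, IF1-KO replicate 2 was lowest. *Kl*, the co-receptor Klotho, read -1.17, -1.41 and 1.01 in IF1-KO, -1.05, 0.71 and -0.87 in CRL and 2.01, -1.39 and -1.71 in IF1-TG mice. Its 6 lower arrays lay within less than 1 log2 unit, and its range was 13.2-fold. *Enpp2* encodes autotaxin, the enzyme that makes lysophosphatidic acid, and read 3.23, 3.23 and 5.49 in IF1-KO, 4.20, 6.21 and 3.68 in CRL and 6.16, 4.0 and 3.23 in IF1-TG mice. It had the smallest range of the 10 genes and was the 1 gene in which CRL replicate 2 and not IF1-TG replicate 1 was highest, by 0.05 log2 units.

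**Figure D1:**
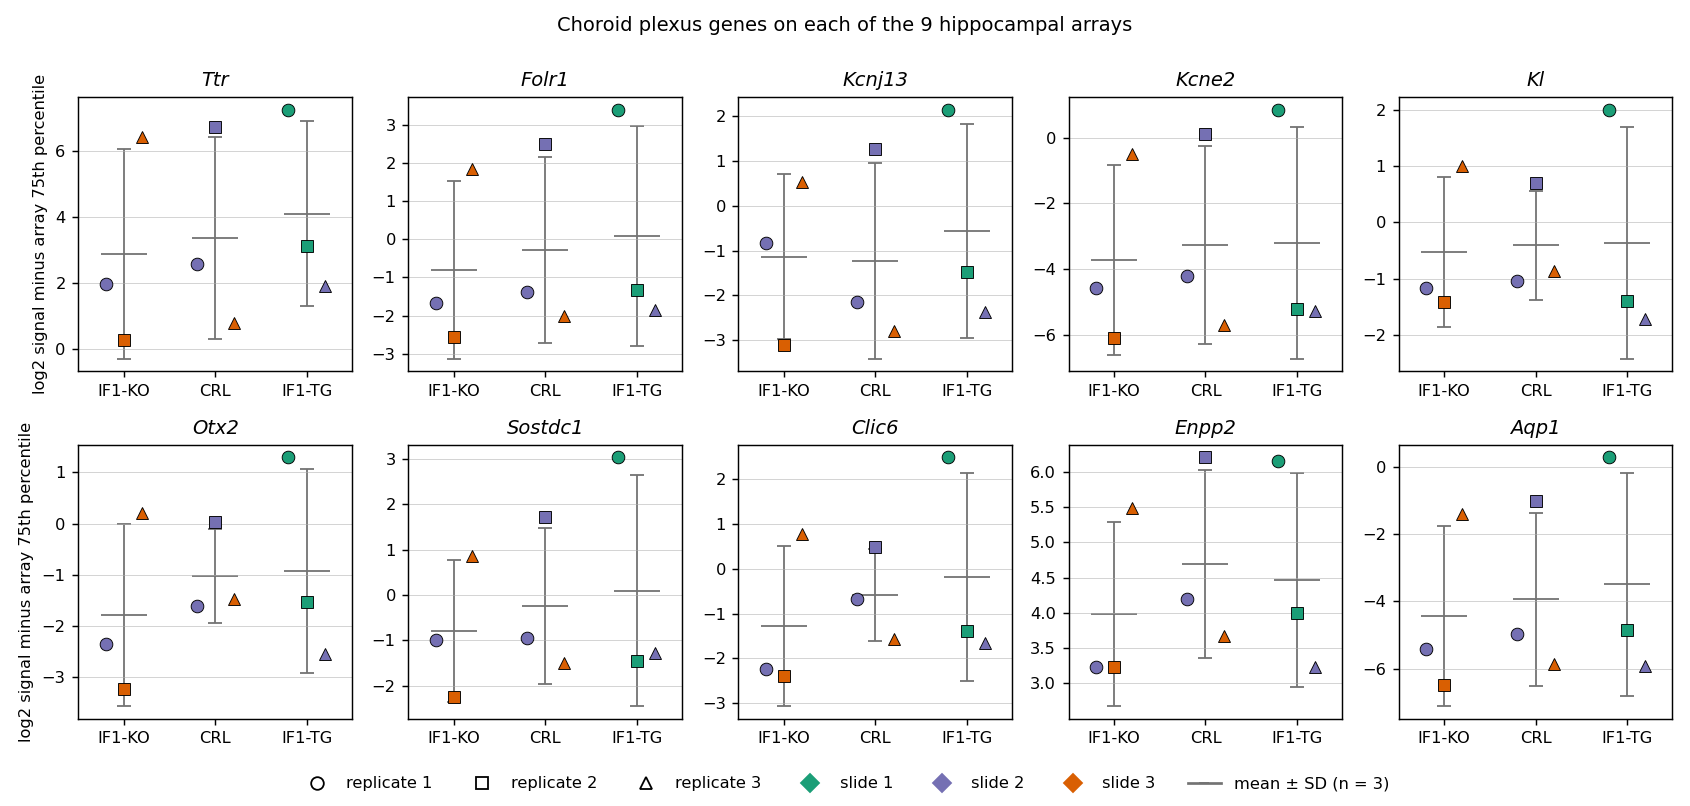
Log2 signal of each choroid plexus gene after the array's 75th percentile was subtracted (y axis, its own scale per panel) by genotype (x axis), with the shape of a point for the replicate number, its colour for the slide, and grey lines for the mean ± SD of 3 mice. In every panel 1 array per genotype, IF1-KO replicate 3, CRL replicate 2 and IF1-TG replicate 1, lies above the other 6 arrays.

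The second probes of 3 genes gave the same picture. Over the 9 arrays the pair of probes of *Folr1* had a Pearson correlation of 0.989, that of *Kcnj13* 0.980 and that of *Sostdc1* 0.976, and the same 3 arrays were highest with each probe. Probes of 1 gene read the same RNA on the same arrays.

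Within a genotype the spread of the 10 genes was among the largest on the array. The SD of the 3 mice ranged from 1.31 (*Enpp2*) to 3.19 (*Ttr*) in IF1-KO, from 0.91 (*Otx2*) to 3.06 (*Ttr*) in CRL and from 1.52 (*Enpp2*) to 3.52 (*Kcne2*) in IF1-TG mice. The residual SD of the linear model, with genotype taken out, was 1.39 to 3.16 for the 10 genes, while its median over all kept probes was 0.24. It exceeded that of 99.7% of the kept probes in *Enpp2* and that of more in the other 9 genes. Among the 50 genes with the largest residual SD there were 8 of the 10 genes.

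Every slide held a pair of arrays of 1 genotype of which 1 was high and 1 was not. On slide 1, IF1-TG replicate 1 stood above IF1-TG replicate 2 in 10 of 10 genes, by 2.16 (*Enpp2*) to 6.07 (*Kcne2*) log2 units with a median of 4.03. On slide 2, CRL replicate 2 stood above CRL replicate 1 by 1.17 (*Clic6*) to 4.33 (*Kcne2*), with a median of 3.04. On slide 3, IF1-KO replicate 3 stood above IF1-KO replicate 2 by 2.26 (*Enpp2*) to 6.19 (*Ttr*), with a median of 3.53. The median of these differences over all kept genes was 0.00, -0.02 and -0.01 in the same order. In *Ttr* the difference on slide 3 was the largest of all kept genes. Each high array thus differed from an array that shared both its slide and its genotype.

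The 3 high arrays did not rank the genes alike. IF1-TG replicate 1 exceeded CRL replicate 2 by 2.02 in *Clic6*, 1.32 in *Sostdc1* and 1.31 in *Kl*, by 0.53 in *Ttr*, and lay 0.05 under it in *Enpp2*. It exceeded IF1-KO replicate 3 in 10 of 10 genes, by 0.66 (*Enpp2*) to 2.18 (*Sostdc1*). CRL replicate 2 exceeded IF1-KO replicate 3 in 7 genes, by at most 0.86 (*Sostdc1*), and lay under it in *Kl*, *Otx2* and *Clic6*, by at most 0.30. The ratio between 2 of the genes was thus not constant from one high array to the next, and single arrays give no error for it.

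Averaged over the 10 genes, each centred on its own 9-array mean, the level was 3.25 on IF1-TG replicate 1, 2.23 on CRL replicate 2 and 1.88 on IF1-KO replicate 3. The other 6 arrays lay between -2.05 on IF1-KO replicate 2 and -0.67 on CRL replicate 1. Every genotype had 1 array at 1.88 or more and a pair at -0.67 or less. On these 3 arrays 67.7%, 74.2% and 72.8% of the probes were well above background, within the range of the other 6 arrays.

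None of the 10 genes was called between genotypes. A gene was called where a probe of it differed 1.5-fold or more with *P* in limma below 0.05 before adjustment, the limits of the study's methods. Between IF1-TG and CRL mice 0 of 10 genes were called, while 5.59% of the 21905 genes tested were. Between IF1-KO and CRL mice it was 0 of 10 against 1.34% of all genes, and between IF1-TG and IF1-KO mice 0 of 10 against 4.7%. Without the fold limit, 0 of 10 members passed the *P* limit in limma, against 10.5%, 3.24% and 8.83% of all genes in the same order, and it was 0 of 10 with eBayes set to trend and robust as well. The lowest unadjusted *P* of a member was 0.66 (*Kcnj13*), 0.48 (*Enpp2*) and 0.40 (*Clic6*) in limma, in the order of these comparisons. The counts say little about the size of a difference, because the intervals were wide. The smallest residual SD among the members belonged to *Enpp2*, and even there the 95% interval of the IF1-TG to CRL difference ran from -2.42 to 1.95. In *Ttr* it ran from -4.01 to 5.47 around a difference of 0.73, and in *Kcne2* from -4.89 to 5.01 around 0.06. A 2-fold difference in either direction lay inside all 30 intervals.

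**Figure D2:**
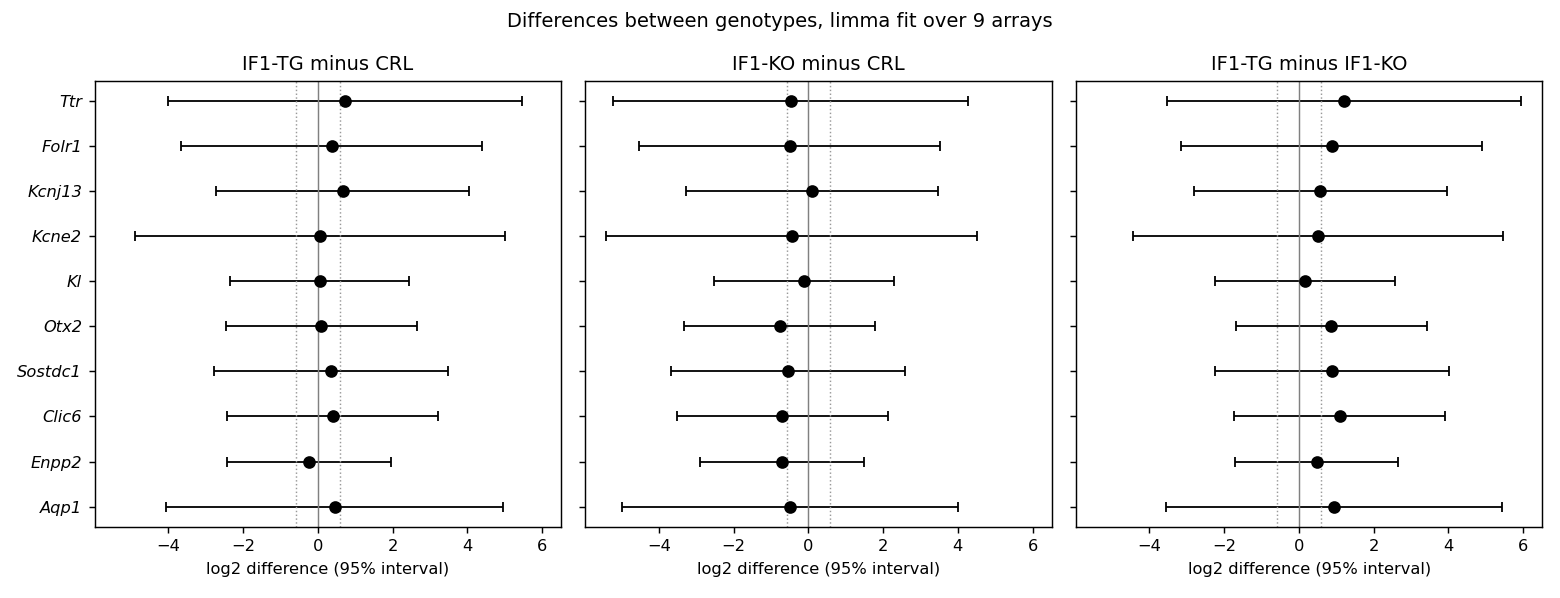
Log2 difference of each choroid plexus gene (x axis) in 3 comparisons of genotypes, with points for the limma estimate over 9 arrays, bars for its 95% interval, a solid line at 0 and dotted lines at a 1.5-fold change. All 30 intervals cross 0 and reach past the 1.5-fold lines on both sides.

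The point estimates were small beside those intervals. The median difference of the 10 genes was 0.36 between IF1-TG and CRL mice, -0.50 between IF1-KO and CRL mice and 0.87 between IF1-TG and IF1-KO mice, while the median over all kept genes was -0.00, -0.01 and 0.01. The 3 comparisons share their groups and are not independent. Arrays of the 2 genotypes overlapped for 10 of 10 genes in each comparison, as they did for 88%, 92% and 86.7% of all genes with a value on all 9 arrays. Without CRL replicate 2 the IF1-KO to CRL median turned to 0.67, without IF1-KO replicate 2 it turned to 0.36, and without IF1-KO replicate 3 it was -1.74. Without IF1-KO replicate 1, the array whose *Atpif1* goes against its label, it was -0.064. Without IF1-TG replicate 1 the IF1-TG to CRL median turned to -1.11 and the IF1-TG to IF1-KO median to -0.69. Leaving out CRL replicates 1 or 3 turned the IF1-TG to CRL median to -0.12 or -0.39, and leaving out IF1-KO replicate 2 turned the IF1-TG to IF1-KO median to -0.05. At the other extreme the IF1-TG to CRL median was 1.54 without CRL replicate 2 and the IF1-TG to IF1-KO median was 1.99 without IF1-KO replicate 3.

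Within slides the direction was not the same either. Between IF1-KO and CRL arrays, the median of the 10 genes was -2.05 on slide 2, where 1 IF1-KO array met 2 CRL arrays, and 1.16 on slide 3, where 2 IF1-KO arrays met 1 CRL array. The IF1-KO array of slide 2 is replicate 1, so the value of that slide rests on an array whose *Atpif1* goes against its label. On slide 2 the IF1-TG to CRL median was -1.96 and the IF1-TG to IF1-KO median -0.25, and the other slides held no such pair. In *Ttr* the IF1-KO to CRL difference was -2.68 on slide 2 and 2.57 on slide 3, and in *Kcne2* -2.53 and 2.41. With slide as a fixed block the median was -1.58 between IF1-TG and CRL, -0.27 between IF1-KO and CRL and -1.28 between IF1-TG and IF1-KO mice. Slide 1 held no array of another genotype, so in that fit the IF1-TG comparisons rest on IF1-TG replicate 3 alone.

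Without the 3 high arrays, which leaves 2 arrays per genotype, the medians were -0.21, -0.48 and 0.46. In that fit *Kl* was called lower in IF1-TG than in CRL mice (log2 difference -0.59, unadjusted *P* = 0.028 in limma). *Clic6* and *Otx2* were called lower in IF1-KO than in CRL mice (-1.19 and -1.24, unadjusted *P* = 0.010 and 0.028 in limma), and for *Clic6* the comparison of IF1-TG with IF1-KO gave a call as well, higher in the former (0.78, unadjusted *P* = 0.049 in limma). The IF1-KO group of this fit is replicates 1 and 2, of which replicate 1 goes against its label in *Atpif1*. That is 1, 2 and 1 of 10 genes beside 5.38%, 1.69% and 3.89% of all genes. No adjusted *P* was under 0.88. The arrays were left out for the level of the same genes, so these calls are a description of the 6 arrays and support no difference.

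Over the 9 arrays the genes moved together. The median of the 45 pairwise Pearson correlations was 0.956, from 0.875 (*Kcnj13* with *Clic6*) to 0.998 (*Folr1* with *Aqp1*), and 42 pairs reached 0.9. By ranks the median was 0.867. The points share their arrays and their scaling, and they fall into 3 high and 6 lower arrays. Among the 6 lower arrays the median was 0.681 and the pairs ran from -0.13 (*Ttr* with *Kl*) to 0.971 (*Folr1* with *Aqp1*).

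Among those 6 arrays *Kl* and *Kcnj13* followed the others least. All 10 pairs under 0.3 held at least 1 of these genes, and 4 pairs reached 0.9, *Ttr* with *Folr1*, *Ttr* with *Aqp1*, *Folr1* with *Aqp1* and *Kcne2* with *Sostdc1*. Taking out the mean of each genotype left the 9-array median at 0.967, and taking out the mean of each slide left it at 0.958. Without the 2 arrays farthest from the median level, IF1-TG replicate 1 and CRL replicate 2, it was 0.904.

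**Figure D3:**
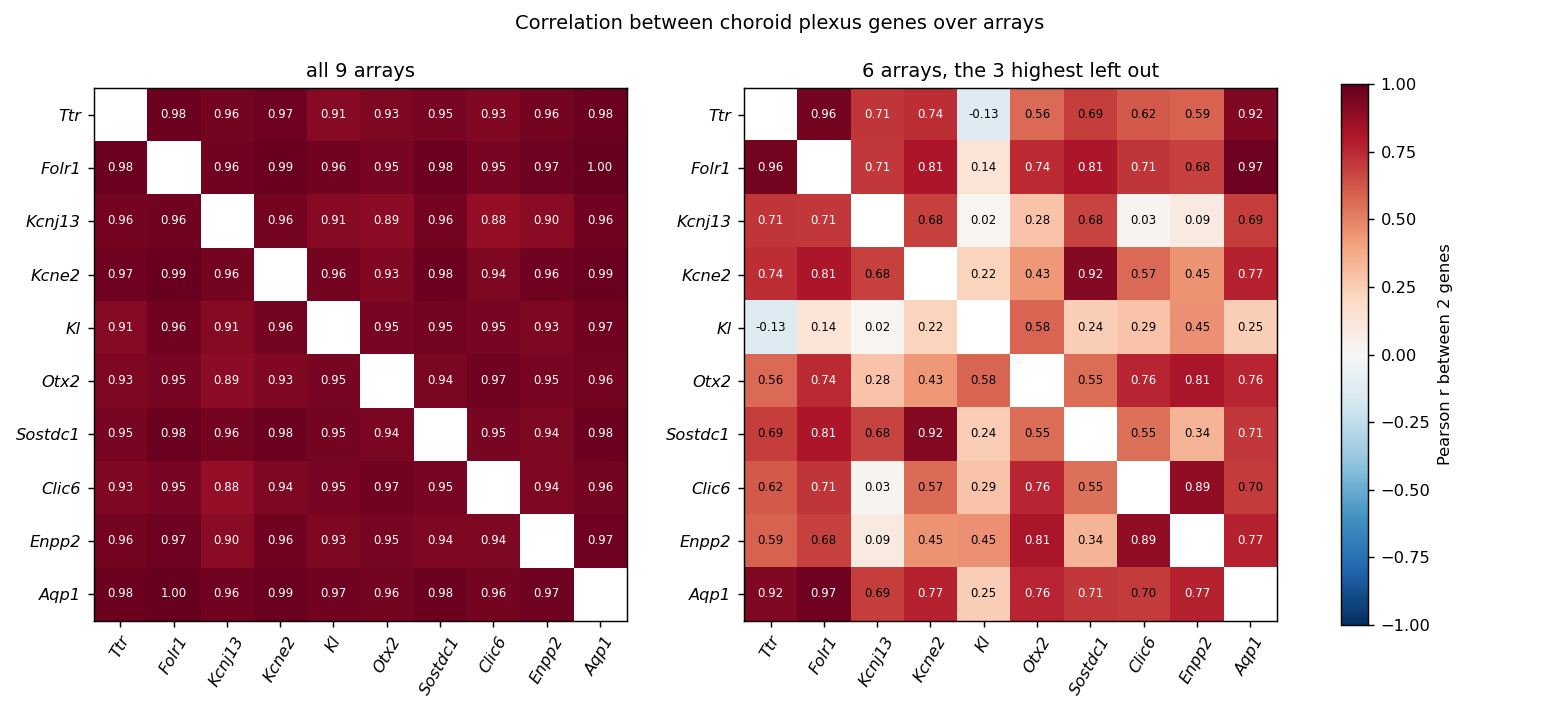
Pearson correlation between each pair of choroid plexus genes (both axes) over all 9 arrays (left) and over the 6 arrays left after the 3 highest are set aside (right), with the colour and the printed value giving r. On the left the lowest value is 0.875, and on the right 10 pairs, each with *Kl* or *Kcnj13*, are under 0.3.

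*Kcne2* and *Clic6* lie near each other on chromosome 16, and the genes between them did not follow the pattern. Their probes are 243067 bases apart on mm9, at chr16:92298236-92298295 and chr16:92541363-92541422. Of 8 probes between them 6 were kept, for 1700048M11Rik, *Smim11*, 4930563D23Rik, *Rcan1*, 2410124H12Rik and an unnamed transcript. None of the 6 had the same 3 highest arrays, and their correlation with the mean of the 10 genes ran from -0.47 (*Smim11*) to 0.52 (*Rcan1*). The other 8 members lie on 8 other chromosomes.

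Other genes of the choroid plexus followed the same 3 arrays. The list held 48 genes, of which 47 were on the array and 44 kept. Of these, 26 (59.1%) had the same 3 highest arrays, as had 298 of all 21648 genes other than the members (1.38%). Their correlation with the mean of the 10 genes reached 0.9 in 22 of 44, against 0.485% of all genes other than the members. Most of this likeness was lost without the 3 high arrays. Within the 6 lower arrays it reached 0.9 in 3 of 44, against 1.77% of all genes other than the members, and the median over the 44 was 0.326 in place of 0.899. Among the 22 genes the 6-array value ran from -0.22 (*Rdh5*) to 0.998 (*Calml4*) with a median of 0.714, and in *Sulf1*, *Msx1* and *Abca4* it was -0.066, 0.122 and 0.299. *Cldn2*, a claudin of the tight junctions between epithelial cells, was at -5.88, -6.29 and -1.96 in IF1-KO, -5.30, -1.53 and -5.77 in CRL and -1.64, -5.07 and -5.95 in IF1-TG mice. *Prlr*, the prolactin receptor, was at -2.60, -2.93 and -0.02, at -2.41, 0.31 and -2.45, and at 1.09, -2.11 and -2.54 in the same order. The list was chosen with earlier results of these data known, and its share is a description.

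The keratin pair *Krt8* and *Krt18*, the calcium channel *Trpv4* and the transcription factors *Msx1* and *Lmx1a* were among the 26. The 26 genes had ranges from 1.64 to 7.17 log2 units and the other 18 from 0.55 to 2.85, so the ranges of these groups overlapped. *Htr2c*, the serotonin receptor 2C, was among them at 0.57 to 1.12 over all arrays, and so was *Rbp4*, the retinol-binding protein, at 0.77 to 1.55. Both are also known from cells outside the plexus, as are *Cp*, *Spint2*, *Bmp7* and *Car14* in that group. The same holds for *Enpp2*, a member that followed the high arrays, and any bearing on the pattern was not tested.

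*Kcnq1*, a potassium channel that the *Kcne2* subunit can join, was the 1 gene of the 44 that was called, in both comparisons with CRL, where 5.59% (IF1-TG) and 1.34% (IF1-KO) of all genes were. It was at -5.11, -5.01 and -5.48 in IF1-KO, -5.77, -6.95 and -5.87 in CRL and -5.16, -5.29 and -4.83 in IF1-TG mice. The CRL arrays were the lowest and did not overlap the others. The difference was 1.11 ± 0.31 (standard error) between IF1-TG and CRL mice (adjusted *P* = 0.45 in limma) and 1.00 ± 0.31 between IF1-KO and CRL mice (adjusted *P* = 1.00 in limma). Its signal was lowest on CRL replicate 2, the 1 array where it was not well above background and where the 10 genes were high. Without that array the differences were 0.73 and 0.62, and both were still called. The correlation with their mean was -0.40. The medians of the 44 genes were 0.18, -0.07 and 0.29 in the 3 comparisons, IF1-TG to CRL, IF1-KO to CRL and IF1-TG to IF1-KO.

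Of 16 genes of retinol and thyroid hormone handling, 0 were called and 2 had the same 3 highest arrays, *Rdh5*, a retinol dehydrogenase, and *Slco1c1*, a carrier of thyroxine. *Rdh5* ran from -1.53 to 2.06 and *Slco1c1* from -0.95 to 0.61. The deiodinase *Dio2* stayed within 1.34 to 2.01 and the receptor *Thrb* within -0.12 to 0.17. The list's medians were -0.02, -0.03 and -0.01 in the 3 comparisons.

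The genes whose pattern was most like the mean of the 10 were found over all genes with a value on all 9 arrays, 21658 in number, by Pearson's correlation. The highest 8 that are no members were *Steap1* (0.998), *Oca2* (0.995), *Slc4a5* (0.994), *Prlr* and *F5* (0.992), *Tuba1c*, *Smim22* (0.991) and *Wdr86* (0.988). *Slc4a5* is a sodium bicarbonate cotransporter, *F5* coagulation factor V and *Tuba1c* an alpha tubulin. The list of other choroid plexus genes holds *Steap1*, *Slc4a5*, *Prlr*, *F5* and *Wdr86* but not *Oca2*, *Tuba1c* and *Smim22*. *Tuba1c* ranged over 2.99 log2 units, and *Steap1*, with 7.17, over more than any of the 10. The lowest 3 were *Armc9* (-0.953), an unnamed transcript (-0.943) and *Sms* (-0.929), with ranges of 0.43, 1.09 and 0.22. Within the 6 lower arrays the correlation of the 8 highest genes was 0.77 to 0.98, that of *Armc9* -0.909, that of the unnamed transcript -0.743 and that of *Sms* 0.16.

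**Figure D4:**
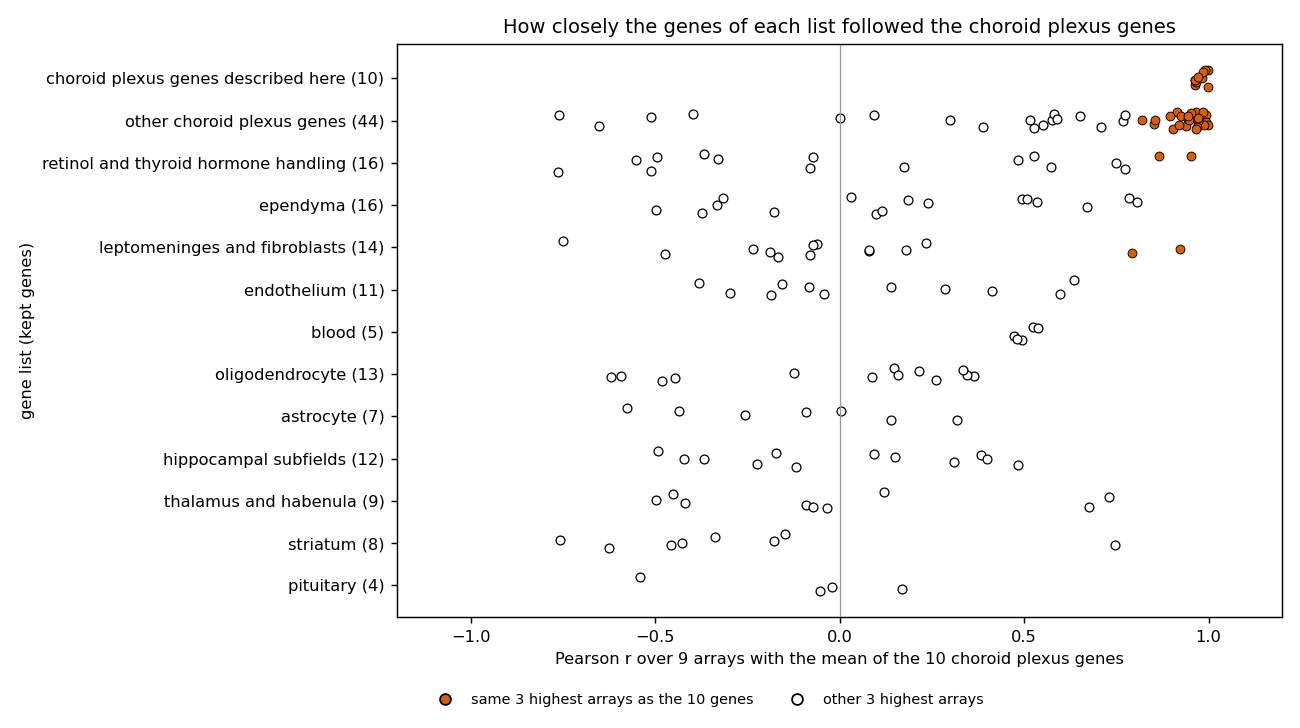
Pearson correlation over 9 arrays of each kept gene with the mean of the 10 choroid plexus genes (x axis), by gene list (y axis, kept genes in parentheses, vertical jitter without meaning), with filled points for genes that share the 3 highest arrays. The 10 genes enter that mean and lie at 0.96 or more, 26 of the 44 other choroid plexus genes are filled, and the only filled points of the other lists are 2 of retinol and thyroid hormone handling and 2 of leptomeninges and fibroblasts.

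Tissues that border the hippocampus were read by lists of their genes. Ependyma, the ciliated lining of the ventricle beside the plexus, was given by 16 kept genes of 18 listed. Of these 0 shared the 3 highest arrays, 0 were called, and their mean level ran from -0.41 on IF1-KO replicate 2 to 0.43 on IF1-TG replicate 1. These are the lowest and the highest array of the 10 genes as well, and 8 of the 16 ependymal genes were highest on IF1-TG replicate 1. The ependymal level was -0.37 on CRL replicate 2 and -0.06 on IF1-KO replicate 3, the other high arrays. The correlation with the mean of the 10 genes was 0.80 in *Cfap126*, 0.78 in *Tekt1* and 0.67 in *Rsph1*, genes of cilia, and -0.18 in *Foxj1*, which drives the making of motile cilia. Over the 16 genes it ran from -0.50 in 1700012B09Rik to 0.80 in *Cfap126*, with a median of 0.15. Within the 6 lower arrays the values were 0.745 in *Cfap126*, 0.0035 in *Tekt1*, 0.575 in *Rsph1* and 0.125 in *Foxj1*, and the median was 0.531. Of 14 leptomeningeal and fibroblast genes 2 shared the 3 arrays, *Igf2* and *Igfbp2*, which the plexus is also known to make. The level of that list was highest on IF1-KO replicate 1, at 0.97, followed by CRL replicate 2 and IF1-TG replicate 2, at 0.61 each. Of 11 endothelial genes 0 shared the 3 arrays, and the list stayed within -0.15 and 0.21. The 5 blood genes were highest on CRL replicate 2, with a mean level of 2.84, but at 0.47 and 0.06 on the other high arrays, IF1-KO replicate 3 and IF1-TG replicate 1. These lists' part in the values of the 10 genes was not tested.

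The 12 genes that mark the subfields of the hippocampus, *Prox1* and *C1ql2* of the dentate gyrus and *Wfs1* and *Fibcd1* of field CA1 among them, were all kept. Their mean level ran from -0.41 on IF1-KO replicate 2 to 0.18 on IF1-TG replicate 3, 0 of 12 were called, and 0 of 12 shared the 3 highest arrays. It was 0.14 on IF1-KO replicate 3, -0.04 on CRL replicate 2 and -0.16 on IF1-TG replicate 1. Of 13 oligodendrocyte genes 0 shared the 3 arrays, while *Enpp2*, also a gene of those cells, did.

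**Figure D5:**
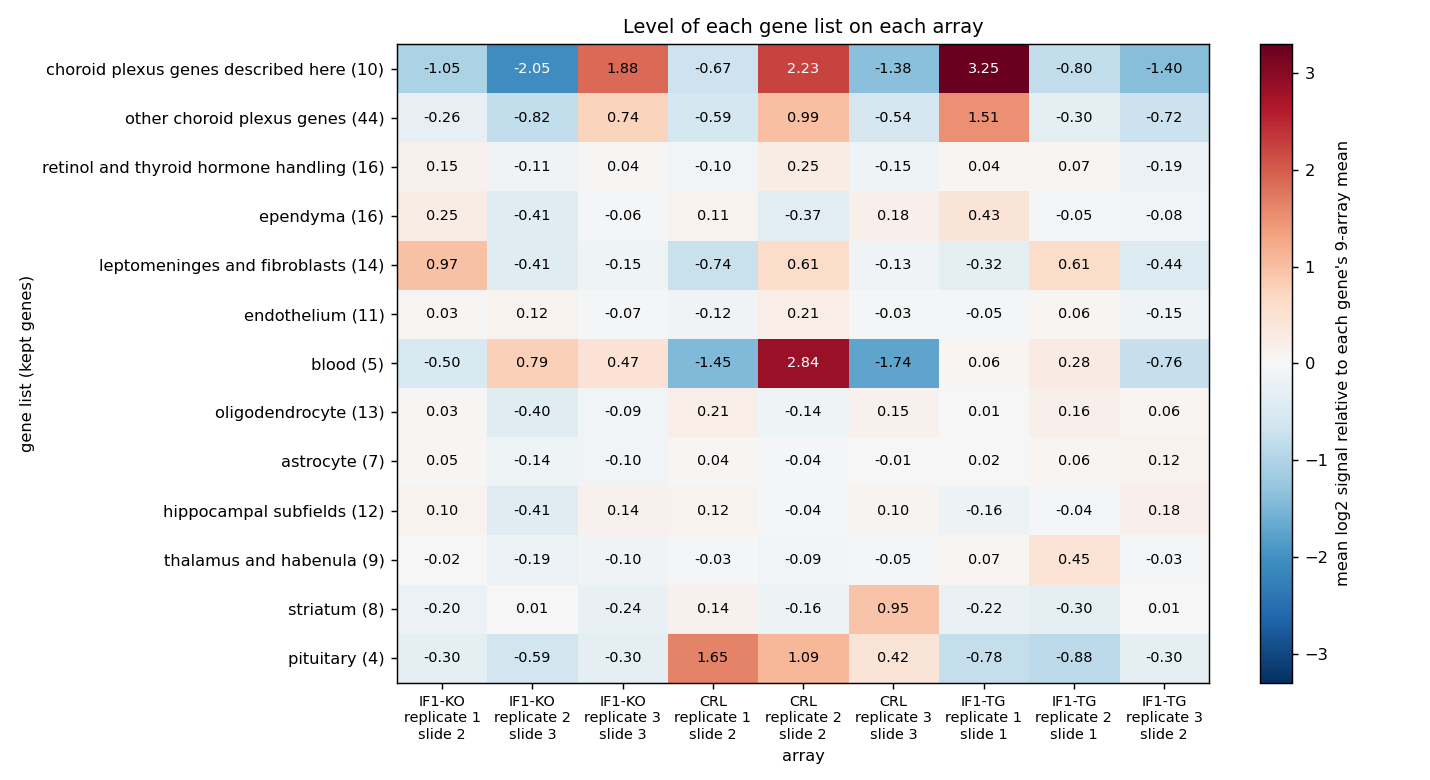
Mean log2 signal of each gene list (rows, kept genes in parentheses) on each array (columns, with genotype, replicate and slide), after every gene was centred on its own 9-array mean, with the colour and the printed value giving the level. The first rows, the 10 choroid plexus genes and the other 44, are high on IF1-KO replicate 3, CRL replicate 2 and IF1-TG replicate 1. The blood row is highest on CRL replicate 2, at 2.84, and is at 0.47 and 0.06 on the other arrays of these 3.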

How the data were processed

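Hippocampal RNA of 9 mice was amplified and hybridized to mouse gene arrays. The authors deposited spot intensities from Agilent Feature Extraction 10.7.3.1, which had corrected each array for background and spatial trend but had not scaled the arrays to each other. The submitters' processing notes name limma. Here the processed intensity was taken as log2 and the 75th percentile of each array subtracted. Spots of a probe were averaged, without controls and outliers. Mean signals with their local background, also deposited as intensities, served for 1 alternative. All arrays entered a single fit of genotype (limma 3.58.1, R 4.3.3, eBayes), and *P* values were adjusted by Benjamini-Hochberg over all kept probes. The fit was tested on data simulated with the median residual SD of 0.24, under the 1.39 to 3.16 of the 10 genes. That test does not cover genes with so wide a spread. The number of arrays limits the precision.

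By rule the genes named are the 10 members, genes of the lists that were called, the 8 genes with the highest and the 3 with the lowest correlation, and *Atpif1*. Members, lists and tests were chosen with earlier results of these data known. Outside that rule, the uncalled genes given as examples of lists, the genes between *Kcne2* and *Clic6* and the promoter letters were chosen after values had been seen. Probe positions are on mm9.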

Additional observations from a re-analysis of the deposited data

How the results depend on the processing

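Over 20 other fits the 10 genes stayed uncalled except without the 3 high arrays, an alternative added after seeing the data, where 1 (IF1-TG to CRL), 2 (IF1-KO to CRL) and 1 (IF1-TG to IF1-KO) were called. Of the single-gene log2 differences, 61 of 270 values with 1 array left out and 29 of 327 others changed sign. The IF1-KO to CRL differences of Otx2 and Clic6 stayed negative in all these fits, and every other difference changed sign in at least 1. With 1 array left out at a time, the log2 difference ran as follows, between IF1-TG and CRL mice Ttr -0.86 to 2.42, Folr1 -1.29 to 1.77, Kcnj13 -0.70 to 1.91, Kcne2 -1.97 to 1.75, Kl -1.14 to 0.72, Otx2 -1.02 to 0.90, Sostdc1 -1.13 to 1.33, Clic6 -0.94 to 1.14, Enpp2 -1.08 to 0.52, Aqp1 -1.44 to 1.91. It ran between IF1-KO and CRL mice Ttr -2.25 to 1.21, Folr1 -1.83 to 0.89, Kcnj13 -0.74 to 1.34, Kcne2 -2.07 to 1.24, Kl -0.88 to 0.44, Otx2 -1.76 to -0.05, Sostdc1 -1.37 to 0.44, Clic6 -1.73 to -0.14, Enpp2 -1.47 to 0.046, Aqp1 -2.0 to 0.97. It ran between IF1-TG and IF1-KO mice Ttr -0.38 to 2.98, Folr1 -0.79 to 2.20, Kcnj13 -0.79 to 1.48, Kcne2 -1.52 to 2.13, Kl -1.03 to 0.93, Otx2 -0.25 to 1.86, Sostdc1 -0.59 to 1.71, Clic6 -0.25 to 2.13, Enpp2 -0.37 to 1.23, Aqp1 -0.95 to 2.45. With slide as a fixed block the IF1-TG to CRL difference was -1.88 in Ttr, -1.76 in Folr1, -1.62 in Kcnj13, -2.39 in Kcne2, -1.26 in Kl, -1.50 in Otx2, -1.31 in Sostdc1, -1.08 in Clic6 and -2.21 in Aqp1. IF1-TG replicate 3 alone carries the IF1-TG comparisons of that fit. In the same fit the IF1-TG to IF1-KO difference was -1.83 in Ttr, -1.47 in Folr1, -2.18 in Kcnj13, -2.33 in Kcne2, -1.10 in Kl, -0.70 in Otx2, -1.02 in Sostdc1, -0.39 in Clic6, -0.89 in Enpp2 and -1.95 in Aqp1. With slide as a random block the IF1-TG to CRL difference was -0.11 in Kcne2, -0.063 in Kl and -0.035 in Otx2. Without the 3 high arrays it was -0.28 in Kcne2, -0.59 in Kl, -0.49 in Otx2, -0.15 in Sostdc1 and -0.41 in Clic6, and the IF1-TG to IF1-KO difference of Kl was -0.26. With normexp and quantile normalization the IF1-KO to CRL difference of Kl was 0.0014. The cause was not tested. The median pairwise correlation of 0.956 became 0.867 by ranks, 0.904 without the 2 arrays farthest from the median and 0.681 within the 6 lower arrays, and ran from 0.938 to 0.964 with 1 array left out. With the replicate number as a block, 0 of 10 genes were called and the medians stayed at 0.36, -0.50 and 0.87. Deviations of same-numbered arrays correlated between -0.17 and 0.12, and those of differently numbered arrays between -0.25 and 0.34. Such values cannot decide whether the numbers pair the mice.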

Other observations

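Lists of other tissues and cell types follow. Of all genes, 5.59% were called between IF1-TG and CRL, 1.34% between IF1-KO and CRL and 4.7% between IF1-TG and IF1-KO. The mean level of the 8 striatal genes was highest on CRL replicate 3, at 0.95, and 6 of them were highest there. *Adora2a*, an adenosine receptor of striatal neurons, was called lower than in CRL mice in both IF1-TG (log2 difference -0.96, adjusted *P* = 0.58 in limma) and IF1-KO mice (-1.16, adjusted *P* = 1.00 in limma). Without CRL replicate 3 these differences were -0.42, no longer called, and -0.62. The first call was also lost without any 1 of the IF1-KO arrays or without IF1-TG replicate 1 or 2, and the second without IF1-KO replicate 3. The mean level of the 9 genes of thalamus and habenula was highest on IF1-TG replicate 2, at 0.45, but only 3 of them were highest there. One of these, *Gbx2*, well above background on 5 arrays, was at -3.48 on it and at -6.45 or less on the others. *Lef1*, a Wnt-responsive transcription factor, was called higher in IF1-TG than CRL mice (0.68, adjusted *P* = 0.56 in limma). That call was lost without CRL replicate 1 or 3 (0.55 and 0.53) and without IF1-TG replicate 1 or 2 (0.48 and 0.67). *Tcf7l2* was called against both other genotypes by a probe other than its brightest. The pituitary list was highest in CRL mice, at 1.65, 1.09 and 0.42, through its hormone genes *Gh* and *Prl*. These were called lower in IF1-TG and IF1-KO mice, but the 3 CRL arrays are the ones that measured them well above background. They passed the filter on dim probes through that group alone, so the calls and the list level support no difference and no fold is given. Against CRL, the uncalled *Pomc* differed by 0.31 in IF1-TG and 0.53 in IF1-KO mice, and *Lhb* by -0.07 and 0.10. Of 13 oligodendrocyte genes *Ermn* was called higher in IF1-TG than in the IF1-KO group (0.96, adjusted *P* = 0.66 in limma), and of 7 astrocyte genes *Aqp4* was called in the same comparison by a probe other than its brightest.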
